A study of Mus musculus with 2 samples.

Results

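The strongest DPPA2 peaks called after adriamycin were selected on the fold enrichment deposited for each peak, which is the height of its summit over the local background as the peak caller computed it. Every peak on chromosomes 1 to 19, X and Y with a fold of at least 9 was taken, which gave 742 of the 16229 adriamycin peaks (4.57%). They are called strong peaks here. Chromatin immunoprecipitation and sequencing (ChIP-seq) with the Sigma-Aldrich antibody MAB4356 was run on R1/E cells, a mouse embryonic stem cell line with p53 intact, grown on gelatin in serum medium with leukemia inhibitory factor. The study holds 1 library from untreated wild-type cells and 1 from cells treated for 8 h with adriamycin, a drug that poisons topoisomerase and breaks DNA, a treatment the labels also call apoptosis induction. Both libraries came from the same line and carry the same batch entry, Day 0. The labels name embryonic tissue as the source beside the cell line, and peak lists hold no expression values by which the cell type could be checked. The design asks where DPPA2 sits once DNA is damaged.

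DPPA2 is a chromatin protein with a SAP domain, found in the early embryo, in pluripotent stem cells and in germ cells. It forms a pair with DPPA4 and is best known for binding CpG-rich promoters, for keeping developmental promoters open to activation, and for switching on Dux, the transcription factor gene that starts the 2-cell programme of the embryo. Most of what is known of its role at genes therefore concerns sites at gene starts.

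The strong peaks lay mostly away from such sites. The sequences that could be read were those at annotated gene starts, where 17 promoter windows of 14 genes lay under a strong peak (250 bases before to 50 after a start, RefSeq, assembly GRCm38.p6). The first set, chosen after the values were seen, shows 3 starts of uncharacterised genes close to a summit, because repeats were found in some of them. Gm41331 is a start beneath the peak of highest fold on the assembled chromosomes, at chr15:60141661-60141960 on the plus strand. Gm41042 is at chr13:100996934-100997233, plus strand, and Gm35407 at chr3:67753350-67753649, plus strand. Capitals mark the 21 bases centred on the summit of the adriamycin peak, 59, 5 and 194 bp before the annotated start.
Gm41331: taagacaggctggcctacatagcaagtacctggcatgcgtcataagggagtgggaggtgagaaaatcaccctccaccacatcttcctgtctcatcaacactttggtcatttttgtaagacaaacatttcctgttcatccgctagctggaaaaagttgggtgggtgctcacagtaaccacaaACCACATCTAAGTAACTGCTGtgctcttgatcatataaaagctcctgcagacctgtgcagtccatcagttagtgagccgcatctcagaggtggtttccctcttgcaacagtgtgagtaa
Gm41042: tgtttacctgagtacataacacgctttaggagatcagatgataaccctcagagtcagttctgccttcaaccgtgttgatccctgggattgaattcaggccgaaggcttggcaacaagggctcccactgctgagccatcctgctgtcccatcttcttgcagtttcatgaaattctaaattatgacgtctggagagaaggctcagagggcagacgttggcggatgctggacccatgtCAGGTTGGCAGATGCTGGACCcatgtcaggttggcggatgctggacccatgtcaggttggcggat
Gm35407: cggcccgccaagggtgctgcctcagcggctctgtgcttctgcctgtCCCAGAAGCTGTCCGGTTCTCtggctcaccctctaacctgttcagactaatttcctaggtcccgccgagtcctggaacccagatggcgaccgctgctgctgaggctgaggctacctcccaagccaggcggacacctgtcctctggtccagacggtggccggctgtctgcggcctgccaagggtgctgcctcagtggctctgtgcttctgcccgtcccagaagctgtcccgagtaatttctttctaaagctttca
The window of Gm41042 holds a stretch of 32 bases more than once. That of Gm35407 holds a stretch of 19 bases more than once. In Gm41331 no stretch of 20 or more bases recurs.

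The second set shows the bases just before 3 protein-coding genes at which the untreated peak was lower. Its printed stretches are of intermediate, lower and higher G+C content. They are at chr17:88792060-88792264, minus strand, for Lhcgr, the receptor for luteinizing hormone, at chr5:92554798-92554959, plus strand, for Fam47e, and at chr8:94386179-94386428, plus strand, for Herpud1, a protein of the endoplasmic reticulum stress response. No base is in capitals, because each summit falls outside the printed stretch: 65 bp inside Lhcgr, 110 bp inside Fam47e and 261 bp before the start of Herpud1.
Lhcgr: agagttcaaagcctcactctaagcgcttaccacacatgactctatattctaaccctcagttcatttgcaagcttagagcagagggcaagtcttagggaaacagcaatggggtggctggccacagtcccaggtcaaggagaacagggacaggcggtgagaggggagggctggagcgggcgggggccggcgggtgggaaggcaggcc
Fam47e: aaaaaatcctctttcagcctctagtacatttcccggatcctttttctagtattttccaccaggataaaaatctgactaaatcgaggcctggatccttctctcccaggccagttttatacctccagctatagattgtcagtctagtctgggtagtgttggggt
Herpud1: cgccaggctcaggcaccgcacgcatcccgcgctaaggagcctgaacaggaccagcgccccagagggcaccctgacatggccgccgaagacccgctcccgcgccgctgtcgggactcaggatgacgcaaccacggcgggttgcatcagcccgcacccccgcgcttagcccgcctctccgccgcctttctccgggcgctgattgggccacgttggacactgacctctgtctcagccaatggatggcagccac
The printed stretch of Herpud1 held 25 CpG dinucleotides and was 69.2% G+C. The stretch of Fam47e held 2 CpG and was 43.2% G+C, and that of Lhcgr held 6 and was 58.5% G+C.

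Across the 17 windows under a strong peak, the median G+C content was 61.7% (quartiles 52.3 and 66.3%) and the median ratio of observed to expected CpG was 0.497 (0.398 to 0.793). The 2088 windows under another adriamycin peak were richer, at 69.0% and 0.866 (0.706 to 0.980). All 32851 windows of the table had medians of 52.7% and 0.384. The windows under strong peaks thus lay between the other bound windows and the average start. The motif GGGCGG, searched on both strands, was in 7 of 17 windows (41.2%), in 76.7% of the windows under other peaks and in 35.7% of all. CCAAT was in 4 windows (23.5%), against 27.8% and 37.4%. TATAAA was in 2 (11.8%), against 3.98% and 13.6%, and CACGTG in 1 (5.88%), against 8.96% and 7.15%. The p53 half-site consensus was in 1 window (5.88%), that of Lhcgr, against 5.75% and 8.36%. A stretch of 20 or more bases recurred within 2 of the 17 windows (11.8%, Gm41042 and Gm51701), against 0.623% and 1.32%. Windows of 1 gene overlap and share bases, so these counts describe 14 genes, and a match shows letters and no bound site.

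Strong peaks were chosen by fold, and their other values show what a high fold stood for. Their median fold was 10.3 (quartiles 9.49 and 11.8, range 9.0 to 34.6). The depth behind a peak was recovered from its fold and p-value as the number of fragments over its summit, here called the pileup. Peaks whose pileup could not be recovered, such as 9:3001669-3002394 with a −log10 q of 2766, are left out of the next values. The median pileup was 29 fragments (24 to 38, range 18 to 2715) over a local background of 1.84 fragments (1.40 to 2.39), against 13 over 1.78 for the other 15487 adriamycin peaks. A fold of 9 therefore rested on few fragments at many peaks: the 95% exact Poisson interval of a pileup of 18 ran from 10.7 to 28.4 fragments. These and the other intervals given here cover counting error only. Of the strong peaks, 561 (75.6%) were also among the 742 of highest −log10 q, and 400 (53.9%) among the 742 of highest pileup. At the limit, the last peaks taken had folds of 9.01 (1:112838070-112838910, near Dsel), 9.01 (1:163092794-163093134, near Mroh9) and 9.0 (10:51132418-51133071, near Sim1). The first peaks left out had folds of 8.99 (15:60973456-60974063 near A1bg, 6:64719580-64719984 near Atoh1 and 14:118057282-118058129 near Dct), so no gap separates the strong peaks from the next.

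Most strong peaks lay between genes. A summit within 1 kb of either end of a protein-coding gene was found at 27 strong peaks (3.64%, 95% exact Clopper-Pearson interval 2.41 to 5.25%), against 3297 of the other adriamycin peaks (21.3%, 20.6 to 21.9%) and 20.5% of the whole list. Another 185 (24.9%, 21.9 to 28.2%) lay inside a protein-coding gene, against 35.4% (34.7 to 36.2%) of the others. The remaining 530 (71.4%, 68.0 to 74.7%) lay between genes, against 43.3% (42.5 to 44.1%). The chromosomes themselves, measured by length, are 2.93% gene end, 36.6% inside and 60.5% between by the same classes. Strong peaks at gene ends were thus close to the share of sequence that gene ends occupy, whereas the rest of the list was well above it.

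The share at gene ends was lower in the bands of higher fold, with little difference below 5 and no clear order among the strong peaks. It was 25.2% of peaks with a fold under 4, 25.5% from 4 to 5, 22.1% from 5 to 6, 14.6% from 6 to 7, 11.1% from 7 to 8 and 6.0% from 8 to 9. Within the strong peaks it was 4.25% from 9 to 10, 2.21% from 10 to 12, 4.59% from 12 to 16 and 5.36% from 16 upward, values whose intervals overlap. The 742 peaks next below the limit already had 50 at gene ends (6.74%, 5.04 to 8.79%), and the 742 weakest had 179 (24.1%, 21.1 to 27.4%). The untreated list gave 26.5% of its peaks under a fold of 4, 1.71% from 9 to 10 and 7.02% from 16 upward. Its peaks with a fold of at least 9 numbered 318 (4.52% of that list), and 11 of them (3.46%) were at gene ends. Ranked in other ways, the adriamycin list gave less extreme shares: 5.80% (4.23 to 7.73%) for the 742 peaks of highest −log10 q and 7.95% (6.11 to 10.1%) for the 742 of highest pileup, both more than 1.5 times the share by fold. The median local background was 2.48 fragments at the strong gene-end peaks, 1.90 at those inside genes and 1.80 at those between. Its part in the shares was not tested.

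**Figure D1:**
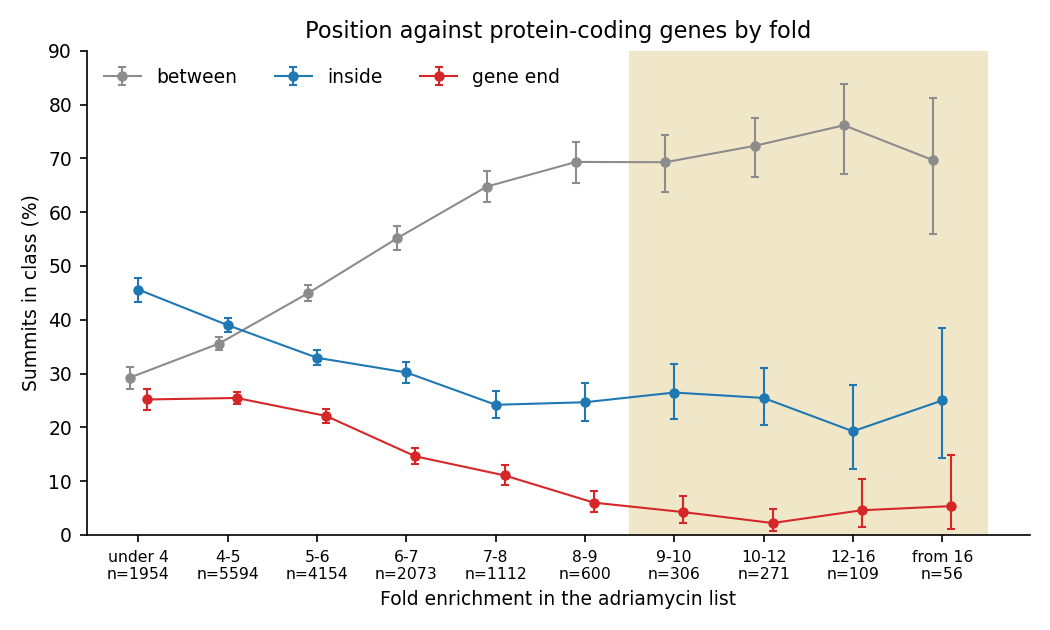
Share of adriamycin summits between genes (grey), inside (blue) or within 1 kb of an end (red) of a protein-coding gene, in percent, by band of fold enrichment. Bars are 95% exact Clopper-Pearson intervals, n is the number of peaks, and the shaded bands are the strong peaks. Gene-end summits fall from 25.2% under a fold of 4 to 2.21% from 10 to 12.

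Strong peaks also lay in gene-poor surroundings. The median distance from a summit to the nearest protein-coding gene end was 70616 bp (19117 to 215766 bp), against 16245 bp for the other peaks, and 318 strong peaks (42.9%) were over 100 kb away, against 21.3%. A median of 5 protein-coding genes lay within 500 kb on either side, against 9. No such gene lay in that space for 72 strong peaks (9.70%), against 4.67% of the others. The 742 peaks next below the limit had nearly the same surroundings, so these are not particular to the strong peaks. Their median distance was 68202 bp, with 42.3% over 100 kb away. They had a median of 5 such genes, and 10.6% had none. With every RefSeq gene counted, long non-coding RNAs and pseudogenes included, 48 strong peaks (6.47%) were at an end, 32.9% inside and 60.6% between, where the chromosomes have 6.05%, 42.4% and 51.5%. A long non-coding RNA held 61 of the summits, a pseudogene 9, and 467 lay in no annotated gene of any type.

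The peaks of highest fold had high folds in the untreated list as well. First by fold stood 15:60141707-60142038, with a fold of 34.6 and 236 fragments (207 to 268) after adriamycin and 33.0 and 218 (190 to 249) untreated. It covers the start of Gm41331 printed above. A peak far from any protein-coding gene, 3:56575423-56575754, 391834 bp from Nbea, had 34.4 and 219 fragments against 33.5 and 245. X:76598550-76599168 lay inside Cldn34d, a claudin gene, with 32.3 and 334 fragments against 32.4 and 441. A peak 696716 bp from Neto1 on chromosome 18 had 31.1 and 198 against 31.9 and 236. The peak within 1 kb of the far end of Lars2, the mitochondrial leucyl-tRNA synthetase, at 9:123461807-123462187, had 30.1 and 184 against 30.3 and 216. These 5 had the highest adriamycin folds, and each had an untreated fold above 30. Local background after adriamycin was high at all 5, from 5.00 times the lowest of the library at Lars2 to 9.13 times at Cldn34d. Folds are not scaled between libraries, so they are set side by side and no change is read from them.

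Of the next 5, a pair lay inside genes of chromatin control and the others between genes. The peak at 12:74803875-74804538, 92859 bp from the potassium channel gene Kcnh5, had a fold of 26.6 and 255 fragments against 23.9 and 257. That at 2:11062154-11062508, 109579 bp from Prkcq, a protein kinase C, had 25.3 and 127 against 22.8 and 97. Inside Jarid2, a cofactor of Polycomb repressive complex 2, the peak at 13:44869524-44869932 had 25.0 and 123 against 24.5 and 144. The peak at 2:182012740-182013106, 11835 bp from Gm14496, had 25.0 and 75 against 21.6 and 60. Inside Smarcd1, a subunit of the BAF chromatin remodelling complex, the peak at 15:99707870-99708409 had 24.7 and 246 against 22.6 and 186. Local background after adriamycin was 8.41 times the lowest of the library at the peak near Kcnh5 and 8.76 times at that inside Smarcd1. It was 3.95, 3.85 and 1.99 times at those near Prkcq, inside Jarid2 and near Gm14496. All 10 peaks were thus called in both libraries with folds above 20.

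Strong peaks were found again in the untreated list far more often than weaker ones. An untreated peak overlapped 699 of the 742 by at least 1 bp (94.2%, 92.3 to 95.8%), against 4885 of the other adriamycin peaks (31.5%, 30.8 to 32.3%) and 34.4% of the whole list. By band of adriamycin fold the share was 14.1% under 4, 17.8, 30.8, 52.7, 68.4 and 80.7% in the bands up to 9, and then 90.2% from 9 to 10, 95.6% from 10 to 12, 99.1% from 12 to 16 and 100% (56 of 56) from 16 upward. The overlapping untreated peaks had a median fold of 8.16 (6.83 to 10.1, range 4.05 to 33.5), at a median percentile of 92.8 within their own list. The untreated fold was itself at least 9 at 253 strong peaks, and it exceeded the adriamycin fold at 109. In the other direction, 316 of the 318 untreated peaks with a fold of at least 9 (99.4%) were overlapped by an adriamycin peak of any fold. Of all 7043 untreated peaks, 5613 (79.7%) were so overlapped, by an adriamycin list of 16229 peaks. Nearly all of the strongest untreated sites were therefore called after adriamycin too, and 43 strong adriamycin peaks had no untreated counterpart.

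**Figure D2:**
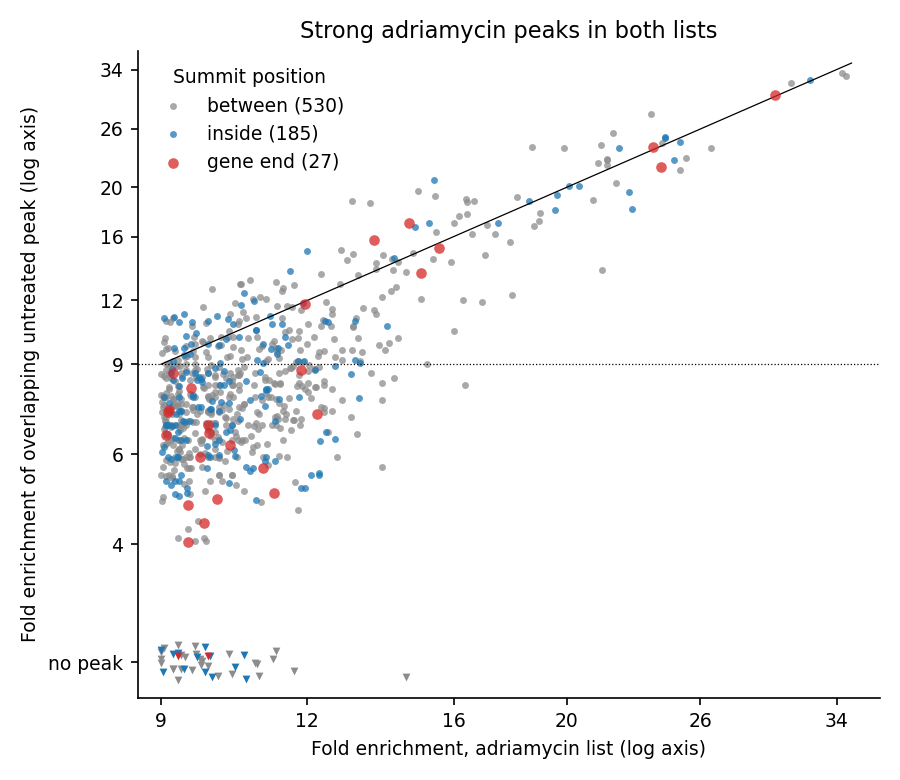
Fold enrichment of each of the 742 strong adriamycin peaks (horizontal, log axis) against that of the overlapping untreated peak (vertical, log axis). Colour gives the summit's position against protein-coding genes, the solid line marks equal folds, the dotted line an untreated fold of 9, and the triangles at the bottom are the 43 peaks with no untreated overlap. The 56 peaks from 16 upward all have an untreated counterpart.

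The summits of the pairs were also close together. At overlapped strong peaks the summits of both lists were a median of 36 bp apart (16 to 79 bp), and 422 pairs (60.4%) were within 50 bp. At the other overlapped peaks the median was 70 bp and the share 38.8%. The overlapped ones among the 742 peaks next below the limit were closer to the strong peaks, with 46.5 bp and 52.9%. In the band from 16 upward the median was 10 bp, with 92.9% of the pairs within 50 bp.

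Pileups were compared after each was divided by the lowest background of its own library, 1.03 fragments after adriamycin and 1.19 untreated. The ratio of the scaled pileups, adriamycin over untreated, had a median of 1.54 (1.22 to 1.90) at strong peaks and was above 1 at 625 of the 696 pairs with both values. The 742 peaks next below the limit had a median of 1.57, above 1 at 548 of 580 pairs, so the ratio is not particular to the strong peaks. All overlapped adriamycin peaks had a median of 1.31, above 1 at 4532 of 5580. The strong peaks were selected on the adriamycin fold, which contains the same pileup, so this ratio is a description. For untreated peaks chosen by their own fold of at least 9, the median ratio was 1.08, above 1 at 192 of 313. In the strong bands it was 1.57 from 9 to 10, 1.64 from 10 to 12, 1.55 from 12 to 16 and 1.03 (0.951 to 1.27) from 16 upward, where 32 of 56 pairs were above 1. Sorted by the mean height of both libraries over background, the strong peaks had median ratios of 1.93 below 15 times (n = 47), 1.68 from 15 to 25 times (n = 374), 1.40 from 25 to 40 times (n = 170), 1.06 from 40 to 60 times (n = 43) and 1.01 from 60 times upward (n = 62). All overlapped peaks had 1.26, 1.41, 1.34, 1.05 and 1.01 in the same classes. Because every strong peak has a high adriamycin summit, one whose mean height is low must have a lower untreated summit, so the order of the ratios among strong peaks is in part set by how they were chosen. Above 40 times, 27 of 43 and 33 of 62 strong peaks had a ratio above 1. With 1 library in each group, a difference in DPPA2 binding and one in the quality of the libraries cannot be told apart.

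Strong peaks were wider than the rest of the list, and the band of highest fold was the narrowest of the strong bands. Their median width was 465.5 bp (369 to 568 bp, range 200 to 1361 bp), against 308 bp (236 to 421 bp), and 238 (32.1%) were under 400 bp, against 71.2% of the others. The 742 peaks next below the limit were closer, with a median of 441.5 bp (345 to 551.5 bp) and 298 (40.2%) under 400 bp. The shortest width in the list, 200 bp, was held by 1 strong peak and 1814 others. By band of fold the median was 465.5 bp from 9 to 10, 482 bp from 10 to 12, 448 bp from 12 to 16 and 361 bp from 16 upward. The overlapping untreated peaks had medians of 412, 422, 419 and 353 bp in these bands. Peaks from 16 upward were thus narrower than the other strong peaks in both lists, but wider than the median of all adriamycin peaks, 314 bp. Width comes from the same pileup as the fold. The strong peaks covered 360.49 kb in all, 6.24% of the length of the list.

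**Figure D3:**
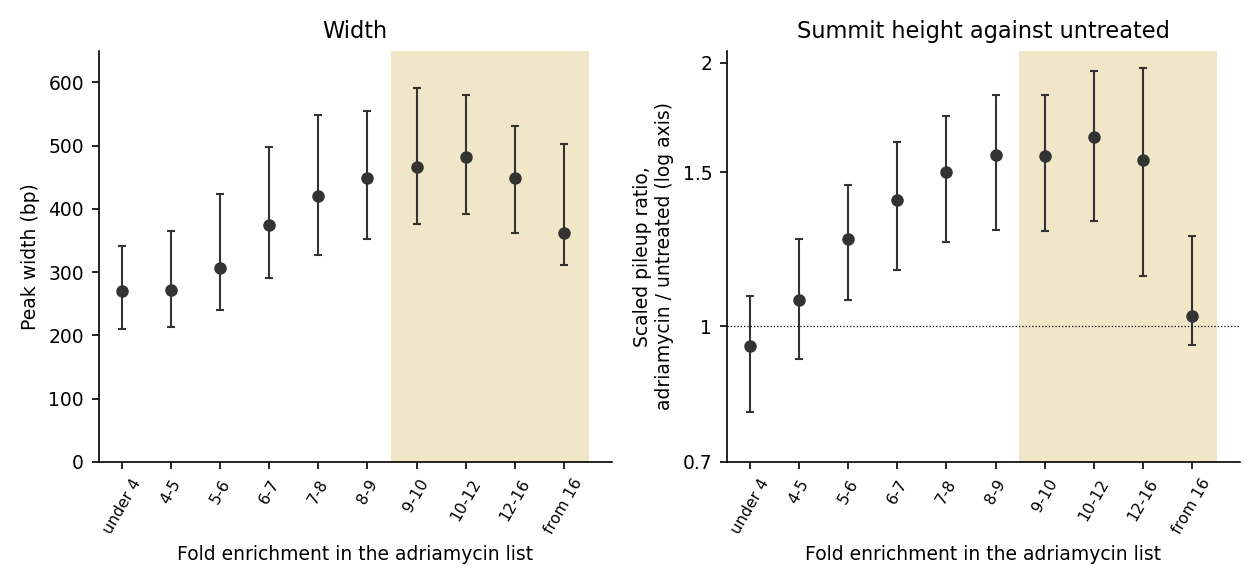
Peak width in bp (left) and scaled pileup ratio of adriamycin over untreated on a log axis (right) by band of adriamycin fold. Points are medians, bars run between quartiles over peaks of 1 library or pair of libraries, and the shaded bands are the strong peaks. Width falls from 482 bp at folds of 10 to 12 to 361 bp from 16 upward, where the median ratio is 1.03.

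The 5 widest strong peaks were each over 1000 bp. The first, 3:91126574-91127934 (1361 bp), lay 19585 bp from S100a7l2 with a fold of 9.64 and 74 fragments, against 6.93 and 40 untreated, where it was 1336 bp wide. The second, 9:123924430-123925647 (1218 bp), lay 37399 bp from the chemokine receptor gene Ccr1 and covered the start of the uncharacterised gene Gm51701, with 12.4 and 233 fragments against 11.9 and 261. The third, 10:58231733-58232913 (1181 bp), lay inside Duxf3, the Dux gene of the RefSeq table, with 10.9 and 305 fragments (272 to 341) against 8.70 and 187. The others, 4:40596379-40597510 (1132 bp, 84957 bp from Aptx, a DNA repair enzyme) and 3:79769813-79770890 (1078 bp, 32759 bp from Rxfp1, the relaxin receptor), had folds of 10.7 and 9.09 against 9.31 and 8.46. In the untreated list the last of these was 454 bp wide.

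A minority of strong peaks sat where the local background was high. At 37 (4.99%) it was at least 5 times the lowest of the library or could not be recovered, against 1.46% of the other peaks. Of these 37, 13 were among the 56 peaks from 16 upward. They include the 5 peaks of highest fold, the one near Kcnh5 and the one inside Smarcd1. These 37 were wider (median 581 bp), were all overlapped by an untreated peak with summits a median of 13 bp apart, and had a median scaled ratio of 1.04. No input profile was used here, and whether these positions gather reads without DPPA2 was not tested. Without them the gene-end share was 3.40% and the overlap 93.9%.

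At gene ends, 27 strong peaks touched 28 gene entries: 15 at the start, 7 at the far end and 6 with no strand in the tables used. The highest fold was at Lars2, given above. A pair of peaks lay at Gm32584, an uncharacterised gene inside D5Ertd579e. The one at its far end had a fold of 24.1 and 75 fragments after adriamycin and 21.9 and 76 untreated, and the one at its start 14.7 and 38 against 17.0 and 44. Past the far end of Rnf41, a RING-type ubiquitin ligase, the values were 23.7 and 117 against 23.98 and 128. At the start of Vmn2r29, a vomeronasal receptor, they were 15.5 and 82 against 15.2 and 90, and beside Defa-ps8, a member of the defensin family, 15.0 and 38 against 13.6 and 36. Vmn2r29 and Defa-ps8 belong to large families of near-identical copies, and their values are uncertain because the filters on reads that map to several places are not given. Before the start of Oasl1, a relative of the interferon-induced oligoadenylate synthetases, they were 13.7 and 51 against 15.8 and 64. At these 7 positions the unscaled pileups of both libraries had overlapping intervals.

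At several other gene ends, starts or not, the untreated peak was lower. Lhcgr had a fold of 12.2 and 55 fragments (41.4 to 71.6) after adriamycin and 7.18 and 26 (17.0 to 38.1) untreated. The intervals of these unscaled pileups did not overlap, but no difference is read from that. All strong peaks were chosen on the adriamycin fold, which contains the adriamycin pileup, so the choice itself favours a lower untreated pileup. The peak shared by Gm40363 and Gm40364 had 11.9 and 31 against 11.8 and 28, and the far end of Gm32234 had 11.9 and 54 against 8.78 and 32. With these the 10 gene-end peaks of highest fold are complete. The following were chosen after their values were seen. Fam47e had 11.2 and 30 against 5.04 and 13, Eri3, an exoribonuclease, 9.80 and 28 against 4.39 and 12, Herpud1 9.50 and 37 against 4.78 and 16, and Cacng1, a calcium channel subunit of muscle, 9.50 and 33 against 4.05 and 13. Gm40864 (fold 9.86) and Spin2d (9.31) had no untreated peak. Over the 25 gene-end peaks with an untreated counterpart the median scaled ratio was 1.64, against 1.53 inside genes and 1.55 between genes. It was above 1 at 23 of the 25, at 151 of 172 inside genes and at 451 of 499 between genes. The quartiles of the 3 classes overlap.

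Inside genes, strong peaks were found in long ones. A strong summit lay at an end of or inside 203 of the 21887 protein-coding genes (0.927%), and 196 held one within the gene's bounds. The median length of these 196 was 162 kb, against 43.9 kb for genes that held other adriamycin peaks and 17.2 kb for all. More than 1 strong peak lay in 16 of them. Klf12, a Krüppel-type transcription factor gene, held 3 (folds 11.3, 9.86 and 9.54) and so did Macrod2 (11.3, 9.23 and 9.13), a hydrolase gene. Both were named after their values were seen. A longer gene offers more sequence for a peak, and gene length was not adjusted for.

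Of 6 gene lists, few members had a strong peak at an end or inside. Among 32 germline genes it was 1, Tdrd9, a helicase of the piRNA pathway that silences transposons, with the peak at 12:112060679-112061215 inside the gene, a fold of 9.42 and 25 fragments after adriamycin and 9.70 and 25 untreated. An adriamycin peak of any fold was present at 21 of the 32. Among 28 genes of the 2-cell stage it was 1, Duxf3, and any peak was present at 3. None was found among 30 p53 targets, 30 apoptosis genes, 30 pluripotency genes and 32 Wnt pathway genes, of which 9, 8, 8 and 24 had an adriamycin peak of any fold. Over all protein-coding genes 30.2% had an adriamycin peak of any fold and 0.927% a strong one. The shares of 3.13% and 3.57% with a strong peak in the first lists each rest on a single gene.

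Along the chromosomes the strong peaks were mostly single. The median distance from a summit to the nearest other strong summit was 942080 bp (341309 to 2412280 bp), close to the 980716 bp among the 742 peaks next below the limit. Joined over gaps of up to 100 kb, 114 strong peaks (15.4%, 12.8 to 18.2%) fell into 53 clusters, of which 46 had 2 members, 6 had 3 and 1 had 4. The next 742 peaks had 67 (9.03%) in 31 clusters and the weakest 742 had 210 (28.3%) in 87. At gaps of up to 10 kb the strong peaks had 27 (3.64%) in 12 clusters, the next peaks 2 (0.270%) in 1 and the weakest 82 (11.1%) in 34, so the strong peaks stood between the others at both distances. At gaps of up to 1 Mb the shares were 52.0%, 50.7% and 69.7%. High local background was found at 18 of the 114 clustered peaks (15.8%) and at 19 of the 628 single ones (3.03%), and its part in the clustering was not tested. Of the clustered peaks, 112 were overlapped by an untreated one.

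The cluster with most members, 4, ran from 114553210 to 114629440 on chromosome 6 between Hrh1, a histamine receptor gene, and Atg7, an autophagy gene. Its folds were 12.3, 9.62, 13.8 and 9.62, against 13.5, 8.77, 9.83 and 6.59 in the untreated list. On chromosome 10, from 58225092 to 58239533, 3 strong peaks lay at the Dux locus, at LOC100504180 (fold 9.55, 204 fragments, against 8.08 and 156), in Duxf3 (given above) and at Gm9919 (9.02 and 34, against 9.47 and 42). The Dux genes form a tandem array of near-identical copies, and at the first 2 of these peaks the local background was high, at 20.5 and 27.0 fragments. Which copy the fragments came from cannot be read from the lists. Near the end of chromosome X, from 169994631 to 170005378, 3 peaks lay between Mid1 and Erdr1, with folds of 18.7, 9.46 and 19.0 against 24.0, 9.0 and 17.8. At 2:181918741-182012922, towards the end of chromosome 2 and near Gm14496 and Gm40034, the folds were 14.2, 14.9 and 25.0 against 13.7, 19.7 and 21.6. At 9:3002161-3029742, where the assembled sequence of chromosome 9 begins, 3 peaks had folds of 13.7, 9.90 and 11.7 against 14.2, 10.2 and 12.9. One of them had a pileup of 2715 fragments over a local background of 273, and the pileups of the others could not be recovered. Each of the 16 peaks in these 5 clusters was called in both libraries. Of the 6 clusters of 3, the 4 described hold the highest −log10 q, and the others lay near Sfi1 on chromosome 11 and near Mid1-ps1 on Y.

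The 742 peaks lay over 2.70 Gb at 0.275 per Mb, or 1 in 3.64 Mb. The highest densities were on chromosome 14 (0.385 per Mb, 0.284 to 0.511, 48 peaks), chromosome 3 (0.375, 0.286 to 0.483, 60 peaks) and chromosome 1 (0.364, 0.284 to 0.459, 71 peaks). The Y chromosome had 0.110 per Mb and chromosome 11 had 0.172 (0.107 to 0.263, 21 peaks). No chromosome lacked a strong peak. Over the 20 chromosomes other than Y, the density of strong peaks went down with the number of protein-coding genes per Mb (Spearman's rho −0.39). That of all adriamycin peaks went up with it (0.69). Both values describe 1 library, and any differences in depth and base composition between chromosomes were not adjusted for. As a share of the chromosome's own peaks, strong peaks made up 16.1% on Y (10 of only 62 peaks) and 8.97% on X (40 of 446). The share was 7.21% on chromosome 3 and 2.17% on chromosome 11, against 4.57% of the whole list.

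**Figure D4:**
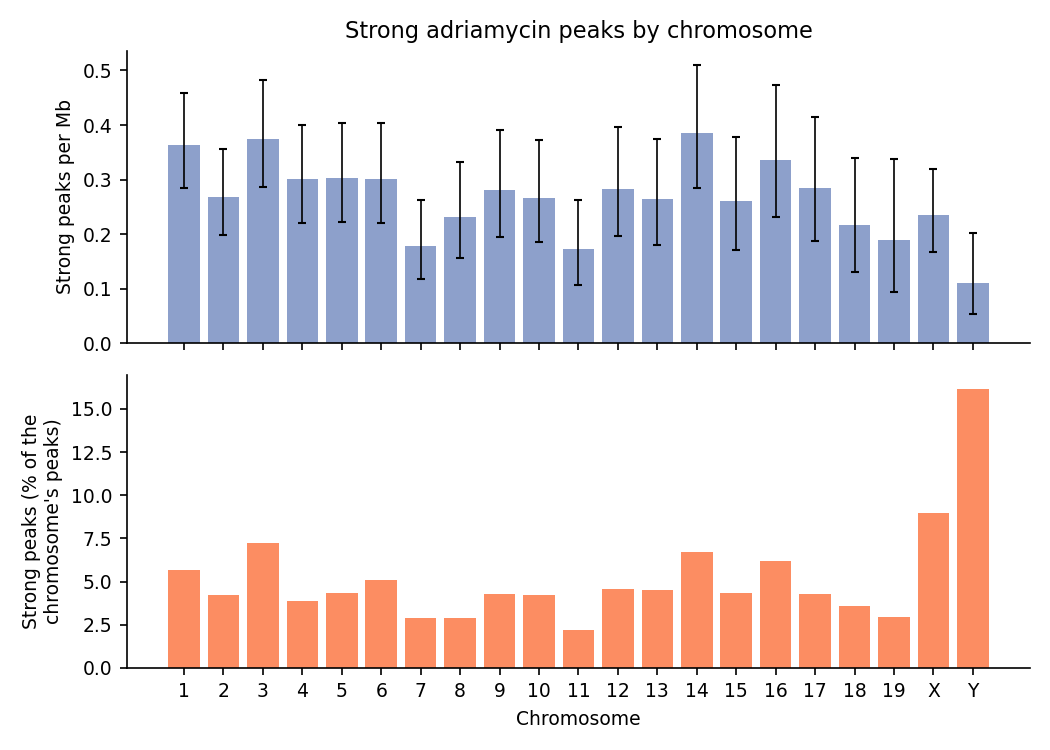
Strong adriamycin peaks per Mb of each chromosome with 95% exact Poisson intervals (top) and as a percentage of all adriamycin peaks on that chromosome (bottom). Chromosomes 14, 3 and 1 have the highest densities, from 0.364 to 0.385 per Mb, and Y has the highest share, 16.1% (10 of 62 peaks).

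The 43 strong peaks with no untreated overlap were among the weaker ones. Their median fold was 9.71, their median pileup 21 fragments (range 18 to 39), their median local background 1.22 and their median width 393 bp. By position 28 lay between genes, 13 inside and 2 at a gene end. The nearest untreated summit was a median of 152102 bp away, within 1 kb for 1 peak and within 10 kb for 2, so most had no untreated peak nearby. On the X chromosome 8 of 40 strong peaks had no untreated overlap, and on chromosome 14 none of 48. Both chromosomes were named after their values were seen. Over all chromosomes it was 43 of 742 strong peaks and 10645 of all 16229 adriamycin peaks. The highest of the 43 was on Y, at 9820413-9820867, 245256 bp from Gm21301, with a fold of 14.6 and 29 fragments (19.4 to 41.6). Next came 15:26280409-26280706, 28503 bp from Marchf11, with 11.7 and 24 fragments, and 2:178774283-178774699, 287086 bp from the cadherin gene Cdh26, with 11.3 and 27. The peak 3:20833522-20833900, 466540 bp from Agtr1b, an angiotensin receptor gene, had 11.2 and 23, and 17:20627725-20628162, 3092 bp from Fpr-rs3, a formyl peptide receptor gene, 10.9 and 23. All 5 lay between protein-coding genes. With 1 library in each group, a site gained after adriamycin and a site missed in the untreated library cannot be told apart.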

How the data were processed

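DPPA2 ChIP-seq peak lists from 1 untreated and 1 adriamycin library were used as deposited. Per the submitters' processing notes, the tools were MACS3 3.0.0b1, Bowtie2 2.5.1, SAMtools, FastQC 0.12.1 and deepTools 3.5.1, and the build was mm10. The sources used here do not give the calling command, the read filters or whether an input was used. The group of the adriamycin sample came from its title, since its genotype entry gives the drug and time instead. That of the untreated sample came from its treatment entry, control.

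Each list was called per library. The fold is the deposited ratio of summit to local background and is not scaled between libraries. The summit's −log10 p-value and −log10 q-value are also as deposited. The deposited score equals −log10 q times 10 without decimals in 100% of adriamycin and 99.97% of untreated peaks. Another deposited value gives the distance from peak start to summit. The smallest −log10 q was 1.30 after adriamycin and 1.33 untreated.

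The lists hold no read totals. Pileups were recovered as the whole number of fragments that gives both the fold (pseudocount 1) and the Poisson −log10 p within 0.001, at 99.98% and 99.94% of peaks. Local backgrounds above the lowest were whole multiples of 0.02 for 99.99% and 99.98%, the step that 200 bp fragments give in a 10000 bp window. An input profile was not used here.

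Peaks on the assembled nuclear chromosomes were set against RefSeq genes of GRCm38.p6, the same assembly as mm10. Either gene end served as the main position, because strand was known for 17492 of 21887 protein-coding genes. Starts are an alternative. The table gives no exons, so exonic and intronic positions were not separated. Strand and starts were matched by symbol to the RefSeq promoter table, which holds 27025 genes. Of 32 genes of the 2-cell stage, 28 matched. Sequences come from the RefSeq promoter table, not from a genome.

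Shares carry Clopper-Pearson and pileups and densities Poisson intervals, both exact and at 95%. With 1 library per group there is no test between groups, no p-value and no replicate spread. Alternatives varied the fold limit (8 or 12), high local background, overlap, the gene-end window (500 or 2500 bp), gene types and the gap for joining peaks. Named are the 10 peaks of highest fold, the 10 of highest fold at gene ends, the 5 of highest fold without untreated overlap, the 5 widest, the 5 clusters with most members (ties by the higher −log10 q), the 3 densest chromosomes and those with none, the 3 peaks on each side of the fold limit, and list members with a strong peak. Other names are marked as chosen later. The members, lists and tests were chosen with earlier results of these data known. Scripts were tested on simulated data. Python 3.11.15, numpy 2.4.6, pandas 2.3.3, scipy 1.17.1 and matplotlib 3.10.9 were used.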

Additional observations from a re-analysis of the deposited data

Results flagged for a closer look

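Peaks on unplaced contigs were outside the comparisons and also held high folds. The adriamycin list had 136 such peaks, of which 20 had a fold of at least 9, and the highest fold was 36.0, above the 34.6 of the highest strong peak on an assembled chromosome. The untreated list had 123, of which 17 reached that fold, with a highest value of 38.2. No control sample without DPPA2 antibody was used here to set these against. On the mitochondrial genome the lists had 6 and 3 peaks, none with a fold of at least 9, and the highest folds were 2.44 and 2.51.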

How the results depend on the processing

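No paired analysis was possible because the labels give no replicate numbers and each group has 1 library. Of 47 alternative values, 22 stayed within the main value's interval or 1.5 times its count, and 25 moved. A fold limit of 8 took 1342 peaks, with 88.2% overlapped, 19.08% in clusters and a median untreated fold of 7.30. A limit of 12 took 165, with 99.4% overlapped, 21.2% inside genes, 7.88% in clusters, a median width of 414 bp and an untreated fold of 12.6. Without high local background 12.8% were in clusters. Overlap fell to 90.8% when at least 50% of both peaks had to be shared and to 88.8% with untreated peaks of q at most 1e-05. Of the 742 strongest untreated peaks (fold from 7.50), 56.6% were overlapped by a strong adriamycin peak. A 500 bp window put 2.29% at gene ends. Counting all RefSeq genes gave 6.47% at ends, 32.9% inside and 60.6% between. Joining gaps of 10 kb and 1 Mb put 3.64% and 52.0% in clusters. The following were added after seeing the data: the 742 peaks of highest −log10 q had 96.9% overlapped and 5.80% at gene ends, the 742 of highest pileup had 7.95% at gene ends, 29.6% inside and 62.4% between, and transcription starts gave 3.10%. Where these differ from the main value without a change in the peaks counted, the cause was not tested. Pileups of 18 to 30 fragments limit the precision of single folds.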
